A study of Mus musculus with 4 samples.

Results

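Ribavirin, an antiviral nucleoside analogue, was compared with its vehicle in the nasal mucosa of mice that had received no allergen. The comparison rests on 2 of the 4 libraries of the series, labelled Ribavirin and Vehicle, each holding single CD45+ cells, that is leukocytes, with their RNA counted by unique molecular identifiers (UMIs). Cells were kept when they held at least as many UMIs as the smallest cell of the Ribavirin library, at least 200 genes and less than 10% mitochondrial UMIs. This left 43513 cells, 20278 from Ribavirin and 23235 from Vehicle, of 65806 cells that met the same limits in all libraries and 79132 deposited cells. The kept cells were then sorted in silico by small sets of marker transcripts, here called gates, each passed by a cell with at least 2 summed UMIs. Cells that passed several gates were left out of the gates but stayed in the comparison over all cells.

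Both groups were C57BL/6 mice, 8 weeks old, and neither received ovalbumin (OVA), the allergen given to the groups Vehicle-OVA and Ribavirin-OVA. Enzymes (hyaluronidase, DNase I and collagenase I) had freed the cells of the mucosa, and CD45+ cells were taken with magnetic beads per the labels. The dose, route and schedule of ribavirin, the nature of the vehicle and the number of mice pooled into a library are not given in the sources used here. With 1 library a side, the difference between the drug and the difference between any other pair of preparations cannot be told apart, and no test or p-value is given.

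Ribavirin enters cells through nucleoside transporters, is phosphorylated by adenosine kinase and inhibits inosine monophosphate dehydrogenase, the enzyme that commits purines to guanine nucleotides. The nasal mucosa holds resident macrophages, lymphocytes, plasma cells and neutrophils beneath an epithelium whose glands secrete odorant-binding proteins, lipocalins and antibacterial proteins. Neutrophils carry granules made in the bone marrow, and those that stay in the nose take up a state marked by Siglecf.

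Depth was close in both libraries. Ribavirin held 162590973 UMIs in the kept cells, with a median of 5131.5 per cell, and Vehicle held 162411908 with a median of 5383.0. The limits kept 94.8% of the deposited Ribavirin cells and 82.2% of the Vehicle cells, where 3954 cells lay under this UMI floor. A total of 151 barcodes occurred in both libraries. Of the lineage markers that a gate had not used, all were highest in their own gate for neutrophils (9 of 9), T cells (6 of 6), NK cells (9 of 9) and the Siglech gate (11 of 11) in both libraries. The C1q gate had 8 of 9, since Cd14 was higher elsewhere, and the B cell gate had 8 of 10, since Ly6d and Fcrla were higher in the Siglech gate. Levels are given as CPM, the UMIs of a gene summed over the cells of a gate and scaled to a common total, and every ratio is Ribavirin over Vehicle with an exact conditional binomial 95% interval. Shares of cells carry exact Clopper-Pearson 95% intervals. All these intervals cover counting error only and say nothing about variation between mice.

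Neutrophils made up more of the Ribavirin library, and T cells and B cell-gate cells less. The neutrophil gate (Csf3r, Cxcr2 and Il1r2, receptors for G-CSF, for chemokines and a decoy for interleukin 1) held 33.3% of Ribavirin cells (32.7 to 34.0) and 24.8% of Vehicle cells (24.3 to 25.4), a ratio of 1.34 (1.30 to 1.39). T cells, gated on the CD3 chains, were 16.5% in Ribavirin and 22.3% in Vehicle, a ratio of 0.741 (0.709 to 0.774). The B cell gate (Cd79a and Ms4a1), whose cells carried plasma cell transcripts as well, held 3.23% and 4.32%, a ratio of 0.748 (0.676 to 0.826). The Siglech gate, which held plasmacytoid dendritic cell markers, took in 2.44% and 3.76%, a ratio of 0.649 (0.580 to 0.725). The C1q gate, of macrophages that express complement C1q, differed less, at 11.1% against 12.7%, a ratio of 0.872 (0.825 to 0.922). NK cells were 2.36% and 2.16%, and their interval of 0.961 to 1.24 included 1. All 6 ratios kept their direction in every alternative run for the shares. With a floor of 500 UMIs, which lets in the small Vehicle cells, the log2 ratio of the neutrophil share was 0.25 in place of 0.42.

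**Figure D1:**
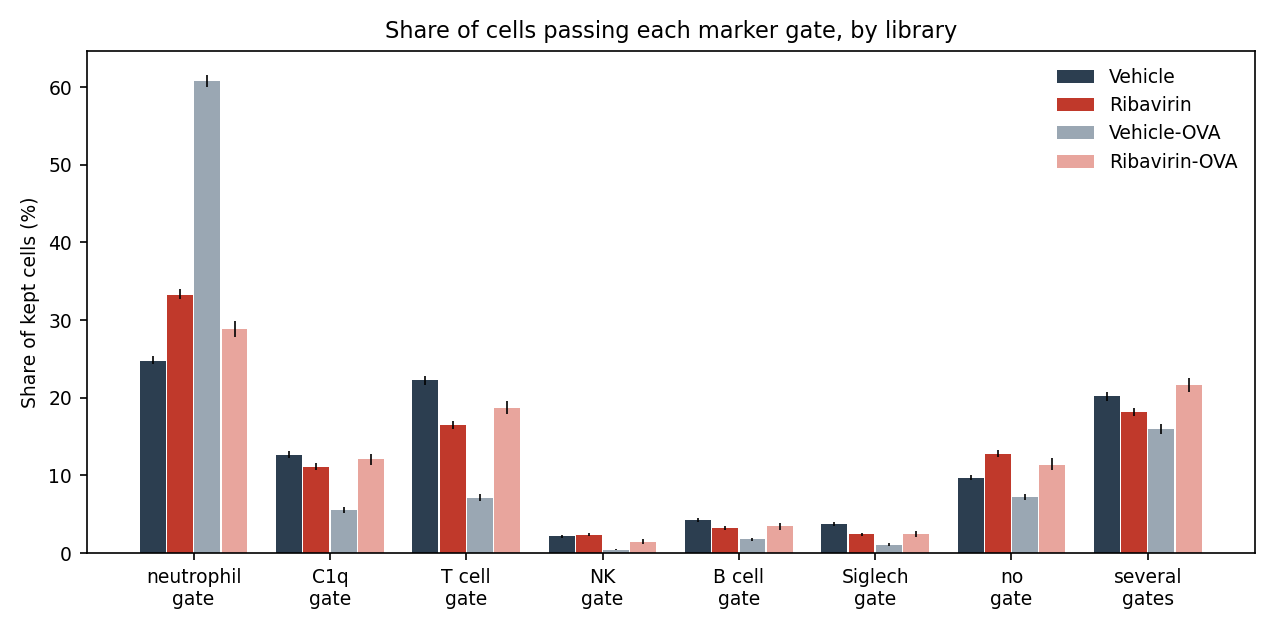
Share of kept cells in each marker gate (vertical axis, percent) for the 4 libraries, with exact 95% intervals as error bars. The neutrophil bar of Ribavirin (33.3%) stands above that of Vehicle (24.8%), while in the OVA pair the Ribavirin-OVA bar (28.8%) stands below that of Vehicle-OVA (60.8%).

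Cells outside the single gates differed too. Cells that passed no gate were 12.8% of Ribavirin and 9.74% of Vehicle, and cells that passed several were 18.2% and 20.2%. The largest overlap joined the neutrophil and C1q gates, with 9.43% of Ribavirin cells and 8.57% of Vehicle cells. Transcripts of plasma cells, the antibody-secreting cells, were lower over all Ribavirin cells. Jchain, which joins secreted antibody into polymers, was at 5762 CPM in Ribavirin and 10675 in Vehicle, a ratio of 0.540 (0.538 to 0.541). Mzb1, an endoplasmic reticulum cofactor of antibody assembly, was at 285 and 534 CPM. Cells with at least 10 UMIs of the plasma cell list were 9.87% of Ribavirin (9.46 to 10.3) and 11.7% of Vehicle (11.3 to 12.1). Among cells that passed no gate, the plasma cell list summed to 1343 CPM in Ribavirin and 4483 in Vehicle. Immunoglobulin genes were not among the genes counted in the files.

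Over all cells, the most general difference was a higher level of secreted gland transcripts in the Ribavirin library. Of 15973 genes with at least 50 UMIs over both libraries, 851 were at least 2-fold higher in Ribavirin (5.33%) and 11 were at least 2-fold lower (0.0689%), on the scale of log2(CPM + 1), while 11.4% and 0.67% passed 1.5-fold. Ratios printed for single genes carry no pseudocount. All 26 listed secreted transcripts were among the higher genes, and this list was drawn up after the values had been seen. Odorant-binding proteins, carriers of odorants in nasal mucus, led by level. Obp1a was at 17824 CPM in Ribavirin and 4363 in Vehicle, Obp1b at 14609.9 and 2922, and Obp2a (chromosome 2, 25700043 to 25703326, mm10) at 7516 and 1144. The whole list summed to 94167 CPM in Ribavirin and 19338 in Vehicle.

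These transcripts were present in every leukocyte gate. The median cell carried 0.308% of its UMIs in the list in Ribavirin and 0.0282% in Vehicle. With each cell thinned at random to the UMI floor, which dropped no cell, Obp2a was found in 53.2% of Ribavirin and 4.83% of Vehicle cells in the neutrophil gate, and in 44.6% and 2.26% in the T cell gate. The lowest Ribavirin share was 36.4%, in the Siglech gate, against 1.95% in Vehicle. Unthinned, Obp2a was found in 74.3% of all Ribavirin cells and 9.03% of all Vehicle cells. The ratio of Obp1b to Obp1a, outside the cells richest in these transcripts, lay between 0.795 and 0.872 in the 6 Ribavirin gates and between 0.659 and 0.713 in the Vehicle gates. The ratio of Obp2a to Obp1a spread more, between 0.426 and 0.566 in the Ribavirin gates and between 0.184 and 0.318 in the Vehicle gates, and that of Gm6619 to Obp1a lay between 0.356 and 0.518 and between 0.0902 and 0.284. Cells with at least 5% of their UMIs in the list, or at least 0.1% in markers of cells that are not leukocytes, were 9.59% of Ribavirin and 3.18% of Vehicle. They are called rich cells here, and this limit was chosen after the data had been seen. Without them the list still summed to 4359 CPM in Ribavirin and 421 in Vehicle, and 181 genes (1.24% of 14562) were at least 2-fold higher and 4 (0.0275%) lower, while 3.28% and 0.192% passed 1.5-fold. Other gland genes were found in more cells of Ribavirin as well, among them Chil4, a chitinase-like protein, in 0.833% of thinned cells against 0.0732%, and Scgb1b27, a secretoglobin, in 1.61% against 0.164%.

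**Figure D2:**
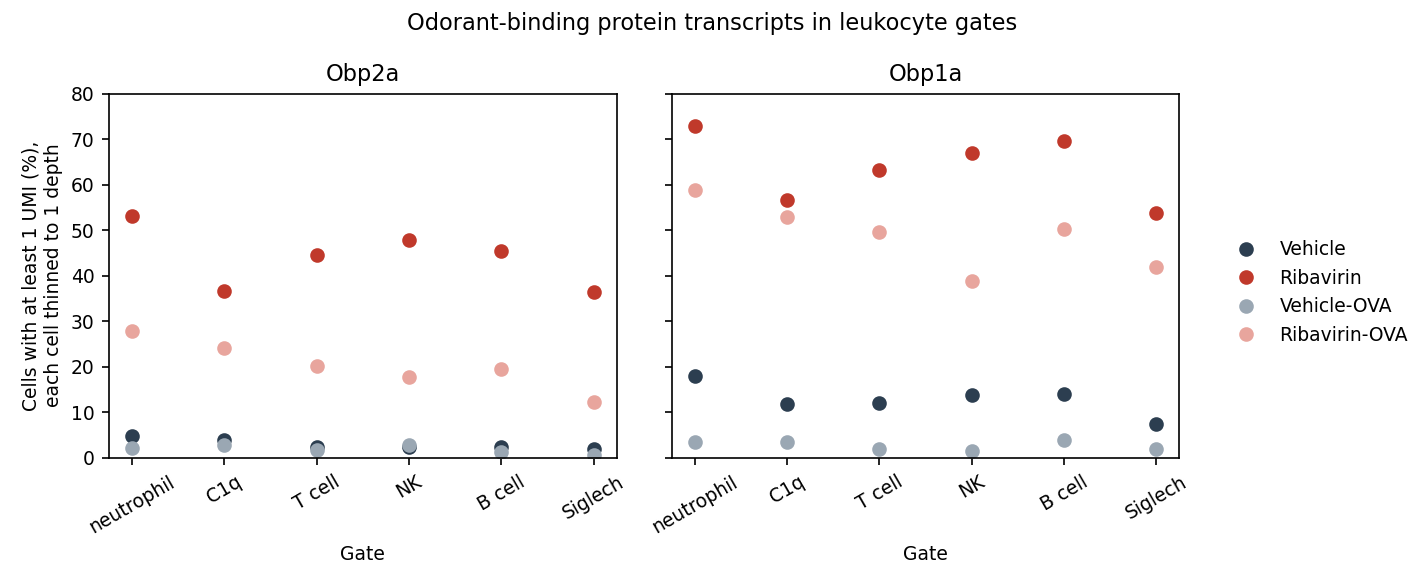
Share of cells with at least 1 UMI of Obp2a (left) or Obp1a (right) in each gate (vertical axis, percent, cells thinned to 1 depth) for the 4 libraries. In all 6 gates both ribavirin-treated libraries lie above both vehicle libraries, with Obp2a between 36.4% and 53.2% of cells in Ribavirin and between 1.95% and 4.83% in Vehicle.

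Of the 851 higher genes over all cells, 59 had at least 50% of their Ribavirin UMIs in 5 cells, and several of the extreme genes were among them. Krtdap, a keratinocyte differentiation gene, had 98.6% of its Ribavirin UMIs in 5 cells, Ibsp, a bone matrix gene, had 99.5%, and Crisp1, a cysteine-rich secretory protein gene, had 82.9%. Gm5097, Moxd2, Olfr536 and Defb4 were alike, with at least 96.9% in 5 cells. Hba-a2, an alpha globin, reached 423 UMIs in Ribavirin against 5 in Vehicle, but 1 Ribavirin cell held 1574 of the library's 1716 globin UMIs. Some of the lower genes were spread over more cells. The uncharacterised gene 3830403N18Rik was at 1.58 CPM in Ribavirin and 5.04 in Vehicle, and the guanylate-binding protein Gbp2b, an interferon-gamma-induced GTPase, at 1.94 and 5.42. Lyve1, a hyaluronan receptor of perivascular macrophages, was at 0.529 and 2.37 CPM. Gdf3 was at 0.480 and 1.80 CPM, Gzmc at 1.19 and 4.46, and Retnla, a macrophage product of type 2 responses, at 0.209 and 2.22, though 95.3% of the Vehicle UMIs of Retnla lay in 5 cells. The ribosomal pseudogene Rps18-ps3 was at 1.04 and 3.10 CPM, with reads that are hard to separate from those of its parent gene, and the predicted gene Gm8879 at 0.271 and 0.985. Cd40lg, a helper T cell gene, was at 15.1 and 34.3 CPM over all cells.

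Neutrophil-gate cells differed in their state. Genes of the Siglecf-positive tissue neutrophil state were lower in Ribavirin, genes of the secondary granules were higher, and several chemokine genes were higher. The gate held 6757 Ribavirin and 5771 Vehicle cells with median depths of 2916.0 and 2814.0 UMIs. Of 12044 genes compared, 538 were at least 2-fold higher (4.47%) and 23 at least 2-fold lower (0.191%), and 1073 (8.91%) and 230 (1.91%) passed 1.5-fold. Counted by the share of thinned cells with a UMI, over 9577 genes, the balance was the other way, with 326 genes at least 1.5-fold higher (3.4%) and 997 at least 1.5-fold lower (10.4%). The median gene of the gate had a log2 ratio of -0.14.

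Siglecf itself, a sialic acid-binding lectin (chromosome 7, 43351341 to 43359531, mm10), was at 143 CPM in Ribavirin and 251 in Vehicle, a ratio of 0.569 (0.546 to 0.592). In thinned cells it was found in 19.8% of Ribavirin and 31.2% of Vehicle neutrophil-gate cells, and in 0.269% and 0.483% of T cell-gate cells, whose median depths were 4634.0 and 4056.0 UMIs. Unthinned, the neutrophil-gate shares were 26.7% and 41.3%. Of 10 genes listed with this state after the values had been seen, 8 were at least 1.5-fold lower and none at least 1.5-fold higher, with a median log2 ratio of -0.82. Ltc4s, the leukotriene C4 synthase, was at 125 CPM in Ribavirin and 214 in Vehicle. Acadl, a mitochondrial fatty acid oxidation enzyme, was at 95.1 and 187 CPM, and Cd72, an inhibitory lectin, at 45.2 and 97.0. Scimp, a transmembrane adaptor, was at 171 and 341 CPM, and Gpc3, a glypican, at 34.4 and 74.0. The listed genes that differed least were Xbp1, at 289 and 294 CPM, and Muc1, a mucin, at 28.9 and 30.3. Muc1 was nevertheless found in 2.40% and 4.68% of thinned cells, and its ratio was 0.456 without rich cells.

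Secondary and tertiary granule genes were higher in Ribavirin, with 4 of 15 compared genes at least 2-fold higher and none lower, at a median log2 ratio of 0.67. Camp, the cathelicidin precursor, was at 1439 CPM in Ribavirin and 638 in Vehicle, a ratio of 2.25 (2.21 to 2.30). Ngp, a neutrophil granule protein, was at 1587 and 696 CPM. Ltf, lactoferrin, was at 1499 and 585, and Lcn2, a siderophore-binding lipocalin, at 1595 and 777. Lactoferrin is also a product of nasal glands, and Ltf was found in 8.24% of thinned T cell-gate cells in Ribavirin and 1.99% in Vehicle, against 15.3% and 6.10% of neutrophil-gate cells. Camp was found in 1.34% and 0.386% of thinned T cell-gate cells and in 4.28% and 1.78% of neutrophil-gate cells. Cells with at least 3 UMIs of Ltf, Camp and Ngp were 4.07% of the gate in Ribavirin (3.61 to 4.57) and 1.91% in Vehicle (1.57 to 2.29). The primary granule genes Mpo, Elane and Ctsg were higher by ratios of 4.12, 2.91 and 2.55, but at least 94.9% of their UMIs lay in 5 cells in each library, and the primary granule list turned lower in thinned cells (log2 ratio -0.45).

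Among secreted mediators, Cxcl3 showed the widest difference. This chemokine ligand of Cxcr2 (chromosome 5, 90786103 to 90789600, mm10) was at 851 CPM in Ribavirin and 143 in Vehicle, a ratio of 5.94 (5.72 to 6.16). It was found in 22.8% and 7.5% of thinned neutrophil-gate cells, 26.6% and 9.32% unthinned, against 1.49% and 0.386% of thinned T cell-gate cells. Its relative Cxcl2 was at 12301 and 6849.9 CPM, and Cxcl1 at 61.9 and 20.5. Csf3, which encodes G-CSF, was low in both, at 10.1 and 1.92 CPM. The regulators Nfkbiz, at 950.3 and 519.8 CPM, and Il1rn, the interleukin 1 receptor antagonist, at 874 and 471, were higher as well, as was the inflammasome sensor Nlrp3 at 580.2 and 342. In contrast Il1b was at 12483 and 12556 CPM, a ratio of 0.994 (0.989 to 0.999), and Tnf was at 126 and 124. Saa3, an acute-phase protein, was lower at 78.5 and 169 CPM. Over the whole list of NF-kB-induced inflammatory genes, 7 of 28 were at least 1.5-fold higher and 1 at least 1.5-fold lower, with a median log2 ratio of 0.30.

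**Figure D3:**
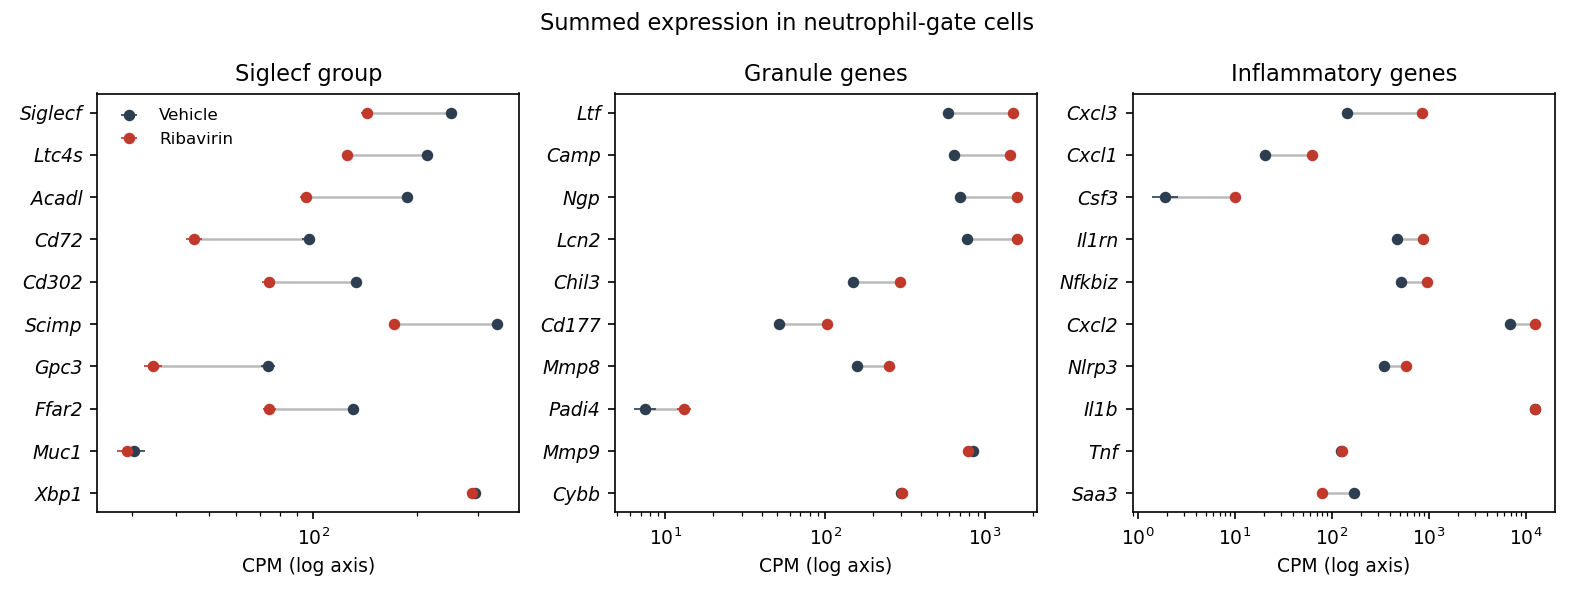
Summed expression in neutrophil-gate cells, in CPM on log axes, for genes of the Siglecf state, granule genes and inflammatory genes, with Vehicle in dark blue, Ribavirin in red, and exact 95% intervals. Siglecf lies at 143 CPM in Ribavirin and 251 in Vehicle, Ltf at 1499 and 585, Cxcl3 at 851 and 143, and the points of Il1b and Tnf coincide.

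Retnlg, a neutrophil resistin-like protein, was higher in Ribavirin, at 2054 and 1115 CPM. The median log2 ratio of the 83 compared nuclear genes of oxidative phosphorylation was -0.36, with 3 at least 1.5-fold lower, and that of the 80 cytosolic ribosomal protein genes was -0.27, with none past 1.5-fold. The 23 genes of glycolysis and hypoxia had a median log2 ratio of 0.04, and the 13 mitochondrially encoded genes one of -0.01. Of the 538 higher genes of this gate, 252 had at least 50% of their Ribavirin UMIs in 5 cells. Dcpp3, Krtdap, Sprr1a, Lcn3, Lcn4 and Obp2b were higher, with at least 84.3% of their Ribavirin UMIs in 5 cells, and Scgb3a1 was lower, with 92.5% of its Vehicle UMIs in 5. Bcas1 was at 4.11 and 13.5 CPM, Tdgf1 at 3.05 and 9.70 and Mmp12, macrophage elastase, at 5.21 and 16.4. S100a5 and Dlg2 were lower in summed CPM but were found in more Ribavirin cells, with S100a5 in 668 of them against 268 in Vehicle. By share of thinned cells, 3830403N18Rik stood lowest of the named genes, at 0.178% and 0.936%, and the gland genes BC048546, Odam and Cabs1 were among the highest.

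Macrophages of the C1q gate carried less of several resident macrophage transcripts in Ribavirin, among them Ccl8, Ccl12 and Cx3cr1. The gate held 2255 Ribavirin cells and 2962 Vehicle cells, with median depths of 9439.0 and 9471.5 UMIs. Of 12616 genes, 992 were at least 2-fold higher (7.86%) and 19 at least 2-fold lower (0.151%), while 13.2% and 1.13% passed 1.5-fold. Of the 992 higher genes, 228 had at least 50% of their Ribavirin UMIs in 5 cells. Rich cells were 9.45% of the gate in Ribavirin and 2.70% in Vehicle, and without them 83 genes were at least 2-fold higher (0.743% of 11171) and 7 lower (0.0627%), while 2.09% and 0.376% passed 1.5-fold. Because rich cells take UMIs from every other gene in a sum, values without them are given beside the main ones for the lists. Among single genes of this gate they are given for Ccl8, Cx3cr1, Cxcl9, H2-Aa and Arg1, and the other gene values include rich cells. The 9 macrophage markers outside the gate genes had a summed ratio of 0.776, and of 0.996 without rich cells.

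Of 25 compared genes of resident macrophages, 4 were at least 2-fold lower, 13 at least 1.5-fold lower and none at least 1.5-fold higher. Without rich cells 1 of the 25 was at least 2-fold lower and 5 at least 1.5-fold lower. The median log2 ratio was -0.61, and -0.28 without rich cells. The monocyte-attracting chemokine Ccl8 (chromosome 11, 82115185 to 82116799, mm10) was at 667 CPM in Ribavirin and 1389.9 in Vehicle, a ratio of 0.480 (0.471 to 0.488), and of 0.610 without rich cells. Ccl12 was at 225 and 441 CPM. Cx3cr1, the fractalkine receptor, was at 329 and 566 CPM, a ratio of 0.581, and of 0.749 without rich cells, and was found in 40.7% and 51.6% of thinned cells, against 2.60% and 2.86% of T cell-gate cells. Lyve1 was at 1.35 and 9.90 CPM, from 8 and 33 cells, and Cd209f, a lectin of border macrophages, at 3.73 and 11.1, from 13 and 39 cells. Gpnmb was at 9.53 and 21.8 CPM, and Mgl2, a galactose lectin, at 29 and 59. Genes of the list that differed least included Gas6, a bridging molecule of dead-cell uptake, at 37.8 and 37.7 CPM, and Tmem119 at 81.8 and 97.9.

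Cxcl9, a T cell-attracting chemokine that interferon-gamma induces, was at 333 CPM in Ribavirin and 621 in Vehicle, a ratio of 0.536 (0.523 to 0.549), and of 0.698 without rich cells. It was found in 15.1% and 22.7% of thinned cells, 24.7% and 37.6% unthinned, against 1.07% and 1.16% of thinned T cell-gate cells. Gbp2b was at 4.27 and 15.0 CPM, and Ly6i, a Ly6 family surface protein of activated macrophages, at 111 and 231. Fam26f was at 74.3 and 131. These 3 genes are not in the list of interferon-gamma-induced genes. Cxcl10 differed less, at 228 and 275 CPM. Over the whole interferon-gamma list, 1 of 21 genes was at least 1.5-fold lower and 1 at least 1.5-fold higher, at a median log2 ratio of -0.22. Without rich cells none of the 21 passed 1.5-fold, and the median was -0.05. Of 12 genes of MHC class II presentation, 2 were at least 1.5-fold lower and none without rich cells, at median log2 ratios of -0.51 and -0.16. H2-Aa, a class II chain, was at 6547 and 9276 CPM, a ratio of 0.706, and of 0.908 without rich cells.

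Other transcripts were higher in the C1q gate. Arg1, the arginine-degrading enzyme of alternatively activated macrophages (chromosome 10, 24915221 to 24927484, mm10), was at 42.5 CPM in Ribavirin and 8.91 in Vehicle, a ratio of 4.77 (4.18 to 5.45), and of 6.09 without rich cells. It was found in 3.64% and 1.11% of thinned cells, 6.83% and 3.24% unthinned, against 0.444% and 0.0693% of thinned neutrophil-gate cells. Of 16 compared genes of type 2 responses, 5 were at least 2-fold higher here, against 7.86% of all genes, and 2, Mgl2 and Clec10a, were at least 1.5-fold lower. Without rich cells 3 of 12 were at least 2-fold higher. Ccl24, an eosinophil-attracting chemokine, was at 14.9 and 2.94 CPM, with 57.6% of the Ribavirin UMIs in 5 cells. Heat shock genes Hspa1b, at 23.6 and 5.59 CPM, and Hspa1a, at 37.1 and 18.1, were higher, and both are inducible chaperones. Cxcl3 was at 11.2 and 1.79 CPM. Cytokeratins and claudins, structural genes of epithelium, were also found in this gate: Cldn7 in 7.41% of Ribavirin and 2.19% of Vehicle cells, and Krt13, at 812 and 2 UMIs, from 6 Ribavirin cells. Bpifb3, Dcpp3, Krt6b, Lcn3 and Lcn4 were higher as well, with at least 96.3% of their Ribavirin UMIs in 5 cells. The part of epithelial RNA in the other values was not tested. Wfdc12 was lower at 2.35 and 97.8 CPM, with 99.6% of its Vehicle UMIs in 5 cells, and Mzb1 was at 14.6 and 45.7 CPM, with 64.1% and 52.0% in 5 cells.

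**Figure D4:**
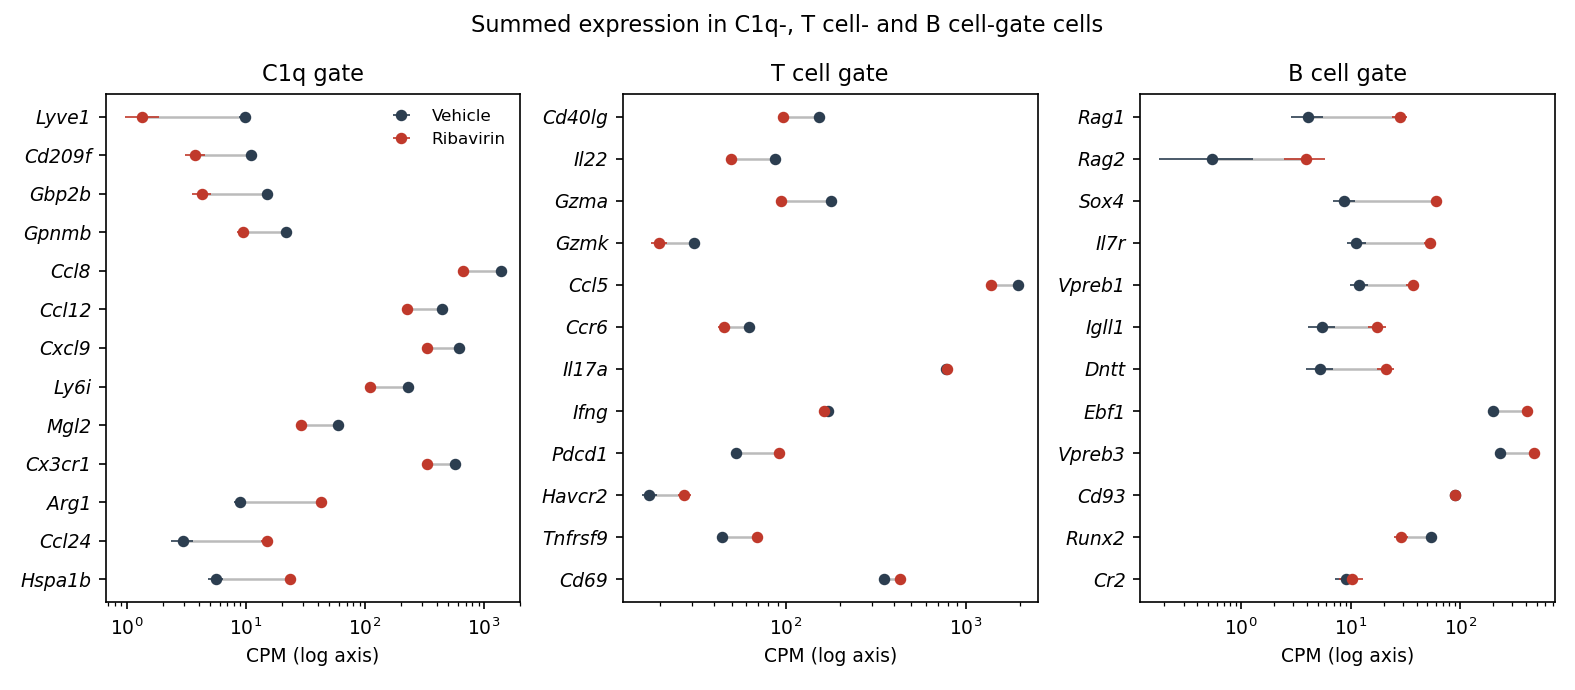
Summed expression in C1q-, T cell- and B cell-gate cells in CPM on log axes, with Vehicle in dark blue, Ribavirin in red and exact 95% intervals. Lyve1 to Cx3cr1 lie lower in Ribavirin than in Vehicle and Arg1, Ccl24 and Hspa1b higher, Cd40lg and Il22 lie lower in the T cell gate, and Rag1 to Vpreb3 lie higher in the B cell gate, while Il17a and Cd93 coincide.

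T cell-gate cells carried less Cd40lg, Il22, Gzma and Gzmk and more Pdcd1, Havcr2 and Tnfrsf9 in Ribavirin. There were 3349 Ribavirin and 5177 Vehicle cells, and of 11546 genes 233 were at least 2-fold higher (2.02%) and 12 at least 2-fold lower (0.104%), while 502 (4.35%) and 71 (0.615%) passed 1.5-fold. Of the 233 higher genes, 163 had at least 50% of their Ribavirin UMIs in 5 cells. Cd40lg, the helper T cell ligand of CD40 (chromosome X, 57212143 to 57224042, mm10), was at 96.7 CPM in Ribavirin and 153 in Vehicle, a ratio of 0.634 (0.600 to 0.671). It was found in 14.1% and 20.6% of thinned cells, 28.5% and 37.0% unthinned, against 0.0444% and 0.0520% of neutrophil-gate cells. Il22, a cytokine that acts on epithelium, was at 49.6 and 87.5 CPM and in 2.81% and 4.93% of thinned cells. The other type 17 cytokine Il17a was at 786 and 777 CPM, a ratio of 1.01 (0.990 to 1.03), and Ifng was at 163 and 171. Gzma was at 94.2 and 179.6 CPM and Gzmk at 19.8 and 30.9, both proteases of cytotoxic cells. Of 20 cytotoxic effector genes, 8 were higher and 12 lower by any amount, with 1 and 2 past 1.5-fold. The NK cell marker list, which itself includes Gzma and Ccl5, summed to 2011 and 2708 CPM in the T cell gate, a ratio of 0.743. Its 9 compared genes had a median log2 ratio of -0.15, with 1 at least 1.5-fold lower. The part of NK cells in these values was not tested. Ccl5, a chemokine of cytotoxic and memory T cells, was at 1385 and 1959.8 CPM but was found in 31.2% of thinned cells of both libraries.

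Pdcd1, which encodes the checkpoint receptor PD-1, was at 92.0 CPM in Ribavirin and 52.7 in Vehicle, a ratio of 1.75 (1.63 to 1.88). Havcr2, another checkpoint receptor, was at 27.3 and 17.4 CPM, and Tnfrsf9, a costimulatory receptor induced on activation, at 69.2 and 44.3. In thinned cells Pdcd1 was found in 12.1% and 8.67%, against 0.192% and 0.104% of neutrophil-gate cells. Foxp3, the factor that defines regulatory T cells, was at 58.0 and 40.8 CPM and in 7.58% and 4.87% of thinned cells, against 0.148% and 0.191% of neutrophil-gate cells. Of 18 activation and checkpoint genes, 3 were at least 1.5-fold higher and 1 lower, at a median log2 ratio of 0.10. The share of the gate with Cd4 and no Cd8 UMI was 23.6% in Ribavirin (22.1 to 25.0) and 26.6% in Vehicle (25.4 to 27.8), and that with Cd8 and no Cd4 UMI was 14.1% and 13.4%.

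Of 31 cell cycle genes compared in the T cell gate, 29 were lower by any amount, 3 were at least 1.5-fold lower and none higher, at a median log2 ratio of -0.39. The mitotic genes Top2a, at 121 and 178 CPM, Cenpf, at 36.2 and 55.1, and Nusap1, at 32.4 and 51.1, were lower. The replication genes Mcm5, at 35.5 and 36.6 CPM, and Pcna, at 106 and 109.5, had intervals that included 1. In thinned cells, however, Top2a was found in 8.96% and 9.83%, so that the sums and the shares differ in how far apart the libraries stand. Arg1 was at 23 and 6.35 CPM in this gate. Some named genes rested on few cells: Prtn3 was found in 4 Ribavirin and 11 Vehicle cells, and Bpifa1, Bpifb1, Dmbt1, Lcn3, Lcn4 and Mgp had at least 75.9% of their Ribavirin UMIs in 5 cells. Mup5, a lipocalin of glands, was at 271 and 9.74 CPM and in 891 Ribavirin cells. St6galnac1, a sialyltransferase, was at 5.88 and 13.8 CPM, and Ly6i at 4.93 and 11.2.

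B cell-gate cells held more transcripts of B cell precursors in Ribavirin. The gate held 655 Ribavirin and 1004 Vehicle cells at median depths of 8751.0 and 8572.5 UMIs. Of 9302 genes, 183 were at least 2-fold higher (1.97%) and 8 lower (0.086%), while 6.15% and 0.935% passed 1.5-fold. Of the 183 higher genes, 65 had at least 50% of their Ribavirin UMIs in 5 cells. Plasma cell transcripts made up much of this gate, and Jchain was found in 83.2% of its Ribavirin cells and 90.7% of its Vehicle cells, unthinned. The plasma cell list summed to 88196 CPM in Ribavirin and 105157 in Vehicle, a ratio of 0.839, with 9 of 10 genes lower by any amount. The B cell marker list summed to 2956 and 2248 CPM, a ratio of 1.31. This mix of B and plasma cell transcripts moved along with the values below, and its part in them was not tested. Of 8 compared genes of a precursor list drawn up after the values had been seen, 7 were at least 2-fold higher. Rag1, which makes the breaks of antigen receptor rearrangement (chromosome 2, 101638282 to 101649501, mm10), was at 28.0 CPM in Ribavirin and 4.05 in Vehicle, a ratio of 6.92 (4.83 to 10.2). It was found in 7.48% and 1.59% of thinned cells, 10.2% and 1.89% unthinned, against 0.0148% and 0.0173% of neutrophil-gate cells. Sox4, a factor of early lymphoid cells, was at 60.5 and 8.76 CPM, and Il7r, the receptor for a growth factor of precursors, at 52.9 and 11.3. Vpreb1 and Igll1, the surrogate light chain, were at 37.0 against 11.9 and 17.5 against 5.48 CPM, with at least 62.0% of their Ribavirin UMIs in 5 cells. Dntt, the template-independent polymerase of rearrangement, was at 21.1 and 5.26, likewise with 71.5% in 5 cells. Ebf1, a master factor of the lineage, was at 412 and 198 CPM and in 45.3% and 26.3% of thinned cells, against 0.666% and 0.364% of neutrophil-gate cells, and Vpreb3 was at 475 and 229.5. Cd93 did not differ, at 89.2 and 89.5 CPM.

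Tifa, an adaptor of NF-kB signalling, was at 72.0 and 16.5 CPM in the B cell gate, Akap12, a kinase-anchoring protein, at 38.6 and 8.33, and Fam129c at 45.2 and 9.53. Runx2, a transcription factor, was at 28.9 and 53.8 CPM, and Rgs1, a brake on chemokine receptor signalling, at 51.9 and 89.7, though Rgs1 was found in nearly equal shares of thinned cells, 8.09% and 8.07%. H1f0, a linker histone, was at 122 and 199 CPM. Ifitm1 was at 77.2 and 128 CPM but was found in a larger share of Ribavirin cells, 29.8% against 24.3%. Lcn3, Lcn4, Obp2a and Obp2b were the highest by ratio, with at least 96.0% of their Ribavirin UMIs in 5 cells. The subset markers Cr2, at 10.2 and 9.09 CPM, and Fcer2a, at 12.6 and 13.8, had intervals that included 1. Neutrophil markers were higher here too, with S100a9 at 701 and 221 CPM, and 7 of 10 secondary granule genes were at least 2-fold higher, with 94.9% of the Ribavirin UMIs of Camp in 5 cells. The neutrophil marker list summed to 1304 CPM in Ribavirin and 402 in Vehicle in this gate, and its part in the other values was not tested.

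NK and Siglech gates held the fewest cells. The NK gate held 478 Ribavirin and 502 Vehicle cells. Of 7135 genes, 103 were at least 2-fold higher (1.44%) and 18 lower (0.252%), while 4.85% and 1.89% passed 1.5-fold, and 56 of the 103 had at least 50% of their Ribavirin UMIs in 5 cells. Of 20 cytotoxic effector genes, 4 were higher and 16 lower by any amount, with 1 past 1.5-fold in each direction. The list had a median log2 ratio of -0.11 and a summed ratio of 0.929 (0.918 to 0.939), and of 0.950 without rich cells. Among its members, perforin, Prf1, was at 236 and 259 CPM, Gzmb at 674 and 719.6, and Ifng at 261 and 283, and all 3 intervals included 1. Cxcl2 was at 184 and 51.8 CPM, and S100a9 at 404 and 219. Gpr183, an oxysterol receptor that guides cell position, was at 70.1 and 120.4 CPM, and Slamf7, an activating receptor, at 67.7 and 122. Ccl1 had no UMI in Ribavirin and 654 UMIs in 2 cells of Vehicle, and no fold is given for it. Gland and olfactory genes led the higher genes, with 5430402E10Rik at 285 and 3.48 CPM, Gm6619 at 726 and 12.4, and Cyp2a5 and Cyp2g1 nearly all in 5 cells. Gzmc, Fabp5 and Bcl2a1b were lower in sums, with at least 35.3% of the UMIs of each library in 5 cells.

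The Siglech gate held 495 Ribavirin and 874 Vehicle cells. Of 9006 genes, 132 were at least 2-fold higher (1.47%) and 8 lower (0.0888%), while 3.09% and 1.54% passed 1.5-fold. Of the 132 higher genes, 116 had at least 50% of their Ribavirin UMIs in 5 cells. All 11 compared plasmacytoid dendritic cell markers were lower by any amount, none of them by 1.5-fold. Their median log2 ratio was -0.16, and -0.11 without rich cells, with a summed ratio of 0.883 (0.875 to 0.892). Tcf4, 1 of these markers, was at 1394 and 1509.9 CPM. Irf7, the regulator of type I interferon and not in that list, was at 132 and 133. Fkbp5, a glucocorticoid-induced chaperone, was at 148 and 82.8 CPM, a ratio of 1.79 (1.59 to 2.00). Of 22 immediate early genes, 7 were at least 1.5-fold higher and none lower, with Jun at 542 and 336 CPM and Fosb at 247 and 149.8. This was not particular to the gate. The list had a median log2 ratio of 0.33 here, 0.41 in the B cell gate, 0.25 in the NK gate and 0.17 in the T cell gate. It was 0.12 in the neutrophil gate and 0.03 in the C1q gate. Arhgap24 was at 10.1 and 27.1 CPM. Cxcl9, at 3.73 and 33.6 CPM, had 90.1% of its Vehicle UMIs in 5 cells, and Fabp5 and S100a5 had 60.1% and 87.1%. The gland transcripts 5430401F13Rik, Gm14744, Gm6619 and Obp2a led the higher genes, with at least 88.6% of their Ribavirin UMIs in 5 cells.

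Transcripts of neutrophils were at higher levels in all 5 other gates of Ribavirin. S100a9, a calprotectin subunit, was in 44.0% of thinned T cell-gate cells in Ribavirin and 28.6% in Vehicle, in 49.2% and 28.9% of NK-gate cells and in 31.9% and 20.9% of Siglech-gate cells. The neutrophil marker list summed to 807 and 447 CPM in the T cell gate and to 1695 and 722 in the C1q gate. Cxcl2, which was at 106 and 53.1 CPM in the T cell gate and at 121 and 57.4 in the B cell gate, differed in the same direction. How much of Cxcl2, Cxcl3 and Ltf in the gates of other cells came from neutrophils was not tested.

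Lists of pathways tied to the drug or to antiviral and stress responses were compared over all cells and in each gate. Of 36 interferon-stimulated genes compared over all cells, and 22 to 36 in a gate, none was 2-fold different. The median log2 ratio was 0.09 over all cells, and between -0.11 and 0.27 over the 6 gates. By any amount, 34 of 36 were higher in the T cell gate, 24 of 26 in the B cell gate and 20 of 28 in the Siglech gate. In the C1q gate 25 of 36 were lower, in the NK gate 14 of 22, and in the neutrophil gate 17 of 36. The T and B cell gates had list medians of 0.27 and 0.26, against 0.03 and 0.06 over all their genes. In the T cell gate Ifit1 was at 45.7 and 29.7 CPM, while Isg15 was at 112 and 111. The 16 stress granule genes, the 18 nucleic acid sensors and the 21 p53 targets compared had no gene past 2-fold in any population, and neither had the 20 genes of the unfolded protein response or the 19 of MHC class I. Over all cells, however, 18 of the 20 unfolded protein response genes were lower by any amount, at a median log2 ratio of -0.32, and of -0.26 without rich cells. Of these 20, 3 were at least 1.5-fold lower (against 0.67% of all genes), and none without rich cells. Within gates the median of this list was nearer 0, from -0.22 (B cell) to -0.02 (T cell). In Vehicle the list summed to 21918 CPM in the B cell gate and 2918 in the neutrophil gate. All 19 MHC class I genes were lower by any amount over all cells, at a median of -0.23, and of -0.11 without rich cells. Within gates, the MHC class I medians were -0.15 (neutrophil) and -0.26 (C1q), with -0.04 in the C1q gate without rich cells. They were -0.05 in the B cell gate, 0.00 in the T cell gate and 0.02 in the NK and Siglech gates, where 13 of 19 were higher. The median of all genes compared over all cells was -0.05, and -0.01 without rich cells. All 80 cytosolic ribosomal protein genes and 30 of 31 cell cycle genes were lower by any amount as well, while 20 of 25 immediate early genes were higher. The ribosomal median was -0.28, and -0.15 without rich cells, and the cell cycle median -0.31 and -0.16. Within gates the ribosomal median lay between -0.27 (neutrophil) and -0.05 (B cell). The cell cycle median lay between -0.39 (T cell) and 0.34 (B cell), where 24 of 31 genes were higher. Shares of cell types differed between the libraries, and their part in these values over all cells was not tested. Of 18 genes of the integrated stress response, 5 were at least 1.5-fold higher over all cells (against 11.4%) and none lower, and 1 was without rich cells. In the C1q gate 6 of the 18 were at least 1.5-fold higher and 3 at least 2-fold, but without rich cells none of the 15 compared passed 1.5-fold. Of 28 genes of ribavirin uptake and purine metabolism, 1 was at least 2-fold higher over all cells, against 5.33% of all genes, and none of the 27 that could be compared without rich cells. It was the concentrative transporter Slc28a3, at 4.53 CPM in Ribavirin and 0.850 in Vehicle. The ratio of Slc28a3 was 5.33 (4.44 to 6.44) over all cells and 2.35 (0.989 to 5.97) without rich cells, where it had too few UMIs to be counted. Impdh1 was at 16.0 and 14.0 CPM, and Impdh2, the main target isoform, at 46.5 and 53.1. The equilibrative transporter Slc29a1 was at 15.5 and 16.9 CPM, and Adk at 11.2 and 13.8.

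**Figure D5:**
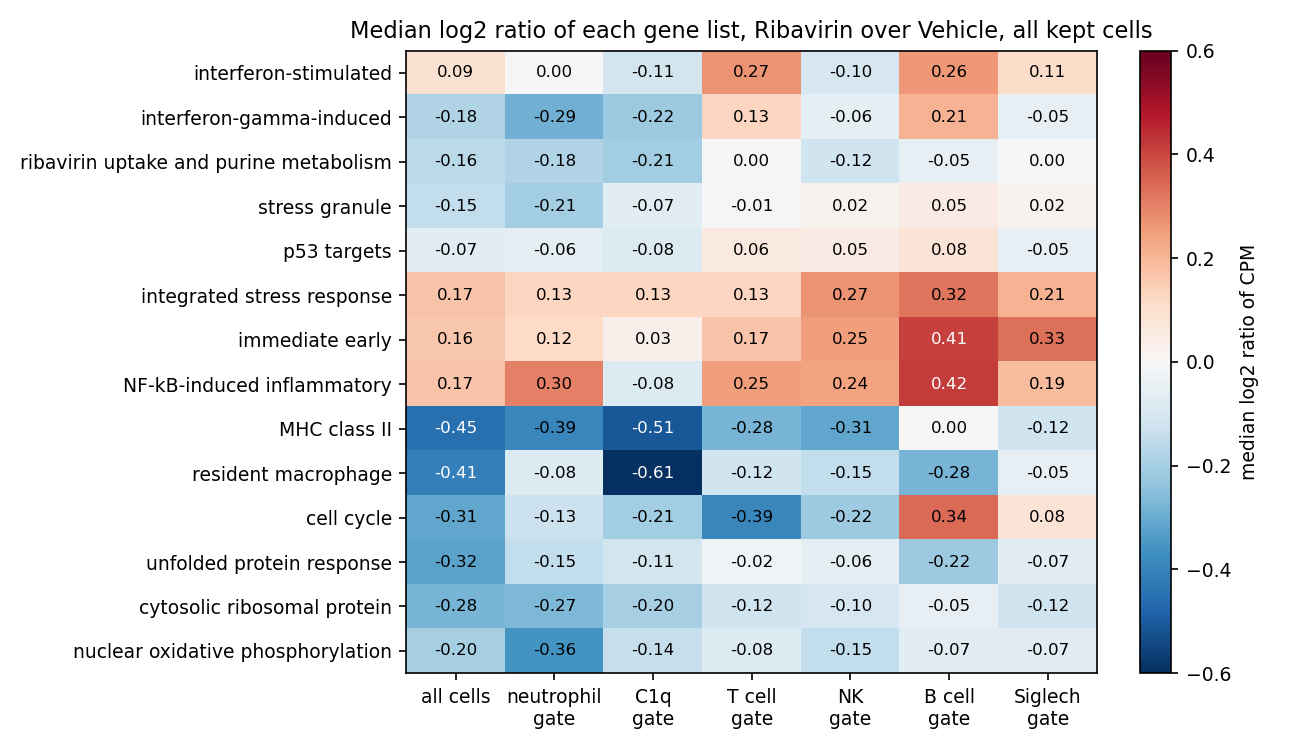
Median log2 ratio (Ribavirin over Vehicle, colour and number) of 14 gene lists in all cells and in the 6 gates, over all kept cells. The interferon-stimulated list lies between -0.11 and 0.27, the NF-kB-induced list is at 0.30 in the neutrophil gate and 0.42 in the B cell gate, and the resident macrophage list is at -0.61 in the C1q gate.

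The OVA pair, Ribavirin-OVA over Vehicle-OVA, holds the same drug contrast in other libraries, and its values are set beside those above without a test. Secreted transcripts lay in the same direction, with a median of 0.205% of a cell's UMIs in Ribavirin-OVA and 0.0211% in Vehicle-OVA. Gate shares lay in the opposite direction for neutrophils, with a ratio of 0.474 (0.453 to 0.497), and for the C1q, T cell, B cell and Siglech gates. In the neutrophil gate Cxcl3 was at 202 CPM in Ribavirin-OVA and 3092 in Vehicle-OVA, and Siglecf at 116 and 54.9, so that both stood opposite to the pair without allergen. Camp, at 2523 and 351 CPM, stood in the same direction. In the C1q gate Ccl8, at 1084 and 1028 CPM, and Arg1, at 1673 and 3755, stood opposite, while Ccl12, at 43.0 and 99.2, Ly6i, at 21.8 and 95.2, Cx3cr1, at 106 and 135, and Mgl2, at 41.4 and 51.9, were lower in both pairs. In this gate secreted transcripts summed to 163326 CPM in Ribavirin-OVA and 7813 in Vehicle-OVA, and these values include rich cells. The part of secreted transcripts in the lower values was not tested. Across genes, which are not replicates, 75.2% of 11607 genes in the C1q gate and 30.1% of 11678 in the neutrophil gate had ratios of the same sign in both pairs, which share no library. The share was 43.3% over all cells, and 54.1%, 52.3%, 40.8% and 51.2% in the T cell, NK, B cell and Siglech gates. Rich cells are included in these shares, and their part in them was not tested. In the T cell gate Il22, at 17 and 38.5 CPM, was lower in both pairs, and in the B cell gate Sox4, at 69.8 and 14.0, and Rag1, at 22.5 and 7.82, were higher in both.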

How the data were processed

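Per the labels, CD45+ cells of nasal mucosa were isolated with magnetic beads, where the design text says FACS instead, and run on a 10x Genomics Chromium X. The authors deposited UMI counts per gene and cell barcode for called cells of each library, with 27998 genes and no normalization, and the submitters' processing notes name Cell Ranger 5.0.0 and mm10. Which annotation was used is not given in the sources used here.

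Cells under the UMI floor, with fewer than 200 genes or with 10% or more mitochondrial UMIs were left out. From the counts, summed CPM was taken per gate with Python 3.11.15, numpy 2.4.6, pandas 2.3.3 and scipy 1.17.1. Genes with fewer than 50 UMIs over both libraries were left out, and 2-fold and 1.5-fold differences were counted on log2(CPM + 1). The ratio procedure was tested on simulated data only, with counts drawn independently for each gene. Those counts do not hold the gathering of UMIs in few cells that the real libraries show. Alternatives changed the cell limits, gates, gene filter, pseudocount and scaling. No doublet caller was run. Cells passing several gates were removed, and doublets within a gate would remain. Gene positions are from GENCODE M21.

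The members and gene lists were chosen with earlier results of these data known. Genes were named by the bound nearest 1 of the interval, among those with at least 200 UMIs over both libraries: 8 in each direction over all cells, 6 in the neutrophil, C1q and T cell gates and 4 in the smaller gates. Gate genes were left out in their own gate. Others were named as members of the 35 gene lists and 18 marker lists, as the strongest differences in the thinned share of cells (up to 8 in each direction, chosen after seeing the data), or for 4 lists drawn up after seeing the data. 121 genes that share a symbol with another identifier were kept apart.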

Additional observations from a re-analysis of the deposited data

Results flagged for a closer look

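Shares of cells in 5 gates lay on opposite sides of 1 in the pair without allergen and in the OVA pair, and the difference between the pairs was not tested, since each library is a single sample. The neutrophil gate had a ratio of 1.34 without allergen and 0.474 with OVA. The C1q gate had 0.872 and 2.17, the T cell gate 0.741 and 2.62, the B cell gate 0.748 and 1.95, and the Siglech gate 0.649 and 2.28.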

How the results depend on the processing

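No paired analysis was possible because each group is a single library with no replicate number. The shares kept their direction in all alternatives run, at log2 ratios of 0.42 (neutrophil), -0.20 (C1q), -0.43 (T cell), 0.13 (NK), -0.42 (B cell) and -0.62 (Siglech) as reported. Values that moved were 0.50, -0.25 (T cell) and 0.49 (NK) at a floor of 3000 UMIs, 0.25 and -0.32 (T cell) at 500 UMIs, -0.28 (C1q) under 5% mitochondrial UMIs, 0.29 with cells of several gates kept, 0.48 without rich cells (neutrophil where no gate is named) and -0.23 (B cell) with each cell thinned.

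Counts of genes past 2-fold depended on the processing and were 862 (all cells), 561 (neutrophil), 1011 (C1q), 245 (T cell), 121 (NK), 191 (B cell) and 140 (Siglech) as reported. In the same order, thinning gave 462, 116, 96, 61, 41 and, in the Siglech gate, 37. Leaving out the 5% of cells with most UMIs gave 495, 159, 308, 116 and 62 (Siglech). Without rich cells they were 185, 202, 90, 101, 72 and 49 (Siglech). The mean of single-cell CPM gave 426, 190, 521, 140 and 332 (B cell). At 200 UMIs per gene they were 306 (neutrophil), 615, 114, 25, 87 and 57, and with no filter 1485 (NK), 438 and 678. A pseudocount of 5 CPM gave 262, 190, 308, 91 and 113 (B cell), and of 0.1 CPM 2092, 895 and 387 (T cell). A gate of at least 3 UMIs gave 333 (neutrophil). Keeping cells of several gates gave 379 (T cell) and 227 (Siglech). Shares of thinned cells gave 209 (neutrophil), 126, 88, 38 (NK) and 41 (Siglech), and there the higher part of the calls was 63.2% in the neutrophil gate and 63.4% in the Siglech gate, against 95.9% and 94.3% as reported. With thinned counts it was 75.0% (neutrophil), 73.2% (NK) and 67.6% (Siglech). The cause was not tested. Leaving out rich cells and counting shares of thinned cells were alternatives chosen after seeing the data.

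Of 2288 log2 ratios of 177 named genes over these alternatives, 1115 stayed within counting error, 1141 moved beyond it and 32, of genes at least 1.5-fold different as reported, turned direction. Of 240 values of 20 gene lists, 67 stayed, 172 moved and 1 turned. Each turned value is given here as its log2 ratio after the turn. With a gate of 3 UMIs they were Scgb3a1 0.10 (neutrophil), Krt6b -0.04 (C1q), Fabp5 0.17 and Ltf -1.63 (NK), and Cxcl9 1.06 and Fabp5 0.20 (Siglech). With cells of several gates kept they were Scgb2b27 -0.78 (T cell), Fabp5 0.62 and Ltf -0.77 (NK), Ifitm1 0.06 (B cell), and S100a5 1.34 and Fabp5 0.48 (Siglech). Thinning gave Wfdc12 0.63 (C1q), Gzmc 2.06 and Fabp5 0.68 (NK), Ifitm1 0.06 (B cell) and -0.45 for the primary granule list (neutrophil). Without the 5% of cells with most UMIs, Wfdc12 was 0.37, Gzmc 0.67 and Ifitm1 0.44. Without rich cells, Dlg2 was 0.67 and S100a5 0.86 (neutrophil), Wfdc12 0.10, Mgp 0.26 (T cell) and S100a5 1.30 (Siglech). As shares of thinned cells, Dlg2 was 0.77, S100a5 0.97 (neutrophil) and 0.68 (Siglech), Wfdc12 0.66, Mgp 0.17, Gzmc 0.07, Bcl2a1b 0.01 (NK) and Ifitm1 0.53. Depth limits genes of few cells most in the NK, B cell and Siglech gates.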
